A study of Homo sapiens with 18 samples.

Results

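The DNAJ genes encode the HSP40 co-chaperones, the largest set of partners of the HSP70 chaperones. Members were the rows of the count table whose symbol is DNAJA, DNAJB or DNAJC followed by a number and that held 10 or more raw counts in at least 3 libraries. This gave 36 members among 43735 rows, with 3 of class A, 10 of class B and 23 of class C. Another 7 rows matched the symbols but not the count rule. These were DNAJB8 and DNAJC28 with 0 counts in the 18 libraries, DNAJA3 and DNAJB3 with 1 count, DNAJC18 with 3, DNAJC22 with 4 and DNAJB7 with 51 counts of which at most 11 fell in a single library. DNAJA3, DNAJC18 and DNAJC28 each have a second row in the count table, also at 0 counts. Whether their low counts reflect the cells or the counting was not tested.

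A J domain is what makes a protein a member of the family: it binds HSP70 and speeds up ATP hydrolysis, which locks HSP70 onto the client protein that the DNAJ protein has brought. Class A members carry the J domain, a glycine and phenylalanine rich stretch and a zinc finger, class B members lack the zinc finger, and class C members share the J domain alone and are tied by their other parts to particular places, such as the endoplasmic reticulum (ER), mitochondria, ribosomes, spliceosomes or vesicles. Plasma cells and the myeloma cells derived from them secrete or retain large amounts of immunoglobulin and are known to depend on chaperones of the cytosol and the ER.

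RNA was sequenced from MM1S cells, a glucocorticoid-sensitive human multiple myeloma line, and from MM1R cells, the glucocorticoid-resistant line. Each line gave 3 groups of 3 libraries: untreated cells, cells kept for 3 h in 5 µM RSL3, and cells given 2 µM Fer-1 (ferrostatin-1) for 2 h and then RSL3 at that dose and time. GPX4, which RSL3 inhibits, clears lipid peroxides and its loss leads to ferroptosis. Fer-1 keeps lipids from being peroxidized. Replicates 1, 2 and 3 are passages 4, 6 and 7 in MM1R cells and passages 16, 22 and 23 in MM1S cells, with the 3 treatments at each passage, and no group held cells given Fer-1 alone. Beyond the passages and the study's term of independent replicates nothing states how the cultures were kept apart, so that p-values measure the spread between these passages.

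Gene positions below are in hg19, the build of the counts. Total counts per library were 17635438 to 19368343. Levels are given in CPM, counts scaled to the library size after TMM normalization, per 1e+06, and changes as log2 fold changes from the quasi-likelihood test of edgeR, with p-values adjusted by Benjamini-Hochberg over the 14281 genes tested (FDR), all 36 members included. The plasma cell marker SDC1 lay between 371 and 925 CPM over the libraries and XBP1 between 1108 and 1649 CPM, while the B-cell marker MS4A1 never passed 1 count and the monocyte marker CD14 never passed 7 counts. Of the other markers checked, the T-cell gene CD3E lay between 3.26 and 11.5 CPM and the epithelial gene EPCAM between 0.314 and 1.51 CPM, and neither passed the test with RSL3. Among 7 plasma cell markers listed, SDC1 and TNFRSF17 were called lower and CD38 higher with RSL3 over both lines. The shares of all genes were 6.81% lower and 8.7% higher. NR3C1, the glucocorticoid receptor gene, was at 13.8 to 22.3 CPM in 8 of the 9 MM1R libraries and at 50.2 CPM in replicate 2 of Fer-1 and RSL3, whereas the MM1S libraries held 89.9 to 392 CPM. That MM1R library stands apart for its line, and the member calls that change without it are given with and without it.

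Promoter sequences are shown for 5 members because RSL3 changed their RNA and stress elements are known for some members. Each is the 250 bases before an annotated start in RefSeq on GRCh38.p14, written 5′ to 3′ on the gene's strand, and capitals mark matches to the motifs. The first motif was a pair of heat shock element units, GAANNTTC or TTCNNGAA, each of which reads the same on both strands. In the DNAJB9 window alone, capitals mark instead CCAAT or ATTGG and CCACG or CGTGG, the ends of the ER stress element on either strand. These ends were searched for separately, without regard to their order or spacing, so that a window with both is not shown to hold the element. The windows are chr19:14518398-14518647 on the minus strand for DNAJB1, which has 3 annotated starts, and on the plus strand chr9:33025023-33025272 for DNAJA1, chr7:157336754-157337003 for DNAJB6, chr2:219279116-219279365 for DNAJB2 and chr7:108569624-108569873 for DNAJB9. The DNAJB1 window was picked from its 3 because it has the most marked letters, and the windows at its other starts held neither pair.
DNAJB1: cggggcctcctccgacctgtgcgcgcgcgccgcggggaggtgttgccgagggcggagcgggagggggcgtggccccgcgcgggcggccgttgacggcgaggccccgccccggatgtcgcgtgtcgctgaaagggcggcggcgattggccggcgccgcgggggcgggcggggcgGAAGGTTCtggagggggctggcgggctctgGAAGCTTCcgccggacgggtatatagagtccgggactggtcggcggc
DNAJA1: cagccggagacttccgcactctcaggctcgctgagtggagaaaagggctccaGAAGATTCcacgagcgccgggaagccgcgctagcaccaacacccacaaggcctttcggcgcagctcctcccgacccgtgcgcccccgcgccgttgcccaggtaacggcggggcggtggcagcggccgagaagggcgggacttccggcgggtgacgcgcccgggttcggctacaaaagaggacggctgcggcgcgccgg
DNAJB6: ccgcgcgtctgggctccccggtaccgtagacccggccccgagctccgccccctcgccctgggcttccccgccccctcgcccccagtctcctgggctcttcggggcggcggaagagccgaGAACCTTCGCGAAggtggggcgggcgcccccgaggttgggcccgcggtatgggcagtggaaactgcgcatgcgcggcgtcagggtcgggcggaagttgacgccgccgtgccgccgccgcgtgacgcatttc
DNAJB2: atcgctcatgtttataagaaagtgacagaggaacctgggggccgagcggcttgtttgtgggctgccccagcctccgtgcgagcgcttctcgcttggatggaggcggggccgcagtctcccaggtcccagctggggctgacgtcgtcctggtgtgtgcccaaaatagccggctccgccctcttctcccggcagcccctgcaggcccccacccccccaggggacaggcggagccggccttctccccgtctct
DNAJB9: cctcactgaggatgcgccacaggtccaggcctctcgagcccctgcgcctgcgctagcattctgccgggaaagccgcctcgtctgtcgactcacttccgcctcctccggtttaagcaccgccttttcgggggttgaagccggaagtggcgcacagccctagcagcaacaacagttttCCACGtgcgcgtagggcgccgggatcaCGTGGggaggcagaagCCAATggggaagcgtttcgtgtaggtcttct

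In DNAJB1, GAAGGTTC lay 77 to 70 bases and GAAGCTTC 47 to 40 bases before the start. DNAJA1 held GAAGATTC 198 to 191 bases before its start, and in DNAJB6 the forms overlapped as GAACCTTCGCGAA, 131 to 119 bases before it. The DNAJB2 window held neither pair and stands in lower case throughout. Of the 34 members with an entry, 6 held a pair (17.6%; DNAJA1, DNAJA4, DNAJB1, DNAJB4, DNAJB6 and DNAJC15), beside 14% of 27305 genes. In the DNAJB9 window CCACG lay 74 to 70 bases, CGTGG 47 to 43 bases and CCAAT 31 to 27 bases before the start. Letters of this kind were not particular to it: the DNAJB1 window, left in lower case there, has CGTGG 183 to 179 and ATTGG 108 to 104 bases before the start, and that of DNAJA1 has CCACG 191 to 187 bases before it. Letters of both ends occurred in 9 of 34 members (26.5%) and in 12% of all genes. These matches are descriptions of letters and were not tested for binding. DNAJC1 and DNAJC24 had no entry.

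In untreated cells the family spanned more than 3 orders of magnitude per length of transcript, and did so only with DNAJA4 included. Scaled by the length of all annotated exons, DNAJA1, the most abundant cytosolic class A member, came first in both lines with 97.7 ± 2.2 CPM per kb in MM1R and 108 ± 5.2 in MM1S cells (SD, n = 3). DNAJC1, an ER membrane protein, was next at 88.7 ± 5.1 and 69.9 ± 8.2 CPM per kb. DNAJB9, an ER lumen protein that restrains the stress sensor IRE1, led class B per length at 44.2 ± 5.4 CPM per kb in MM1R and 40.2 ± 1.4 in MM1S cells. This place depends on the scaling, with lengths of 2538 bases for DNAJB9, 8188 for DNAJB1 and 9385 for DNAJB11. Unscaled, DNAJB11 held 249 to 291 CPM and DNAJB1 142 to 191 CPM in the untreated libraries, against 97.7 to 125 CPM for DNAJB9. DNAJB1, the main stress-inducible HSP40, was at 19.7 ± 2.3 and 21.3 ± 2.9 CPM per kb, and DNAJA4 was lowest at 0.0215 ± 0.022 and 0.0493 ± 0.0084 CPM per kb. DNAJA4 held only 1 to 7 raw counts in the untreated libraries and met the count rule through treated libraries alone. The lowest members after it were DNAJB5 at 0.556 ± 0.10 CPM per kb in MM1R and DNAJB13 at 0.254 ± 0.040 in MM1S cells. In MM1R cells the next members after DNAJC1, DNAJC8 at 45.8 ± 7.1 and DNAJB9 at 44.2 ± 5.4 CPM per kb, did not differ beyond their spread. The length is the union over all annotated transcripts and differs from the transcripts these cells use, which can shift a gene's place in this order.

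**Figure D1:**
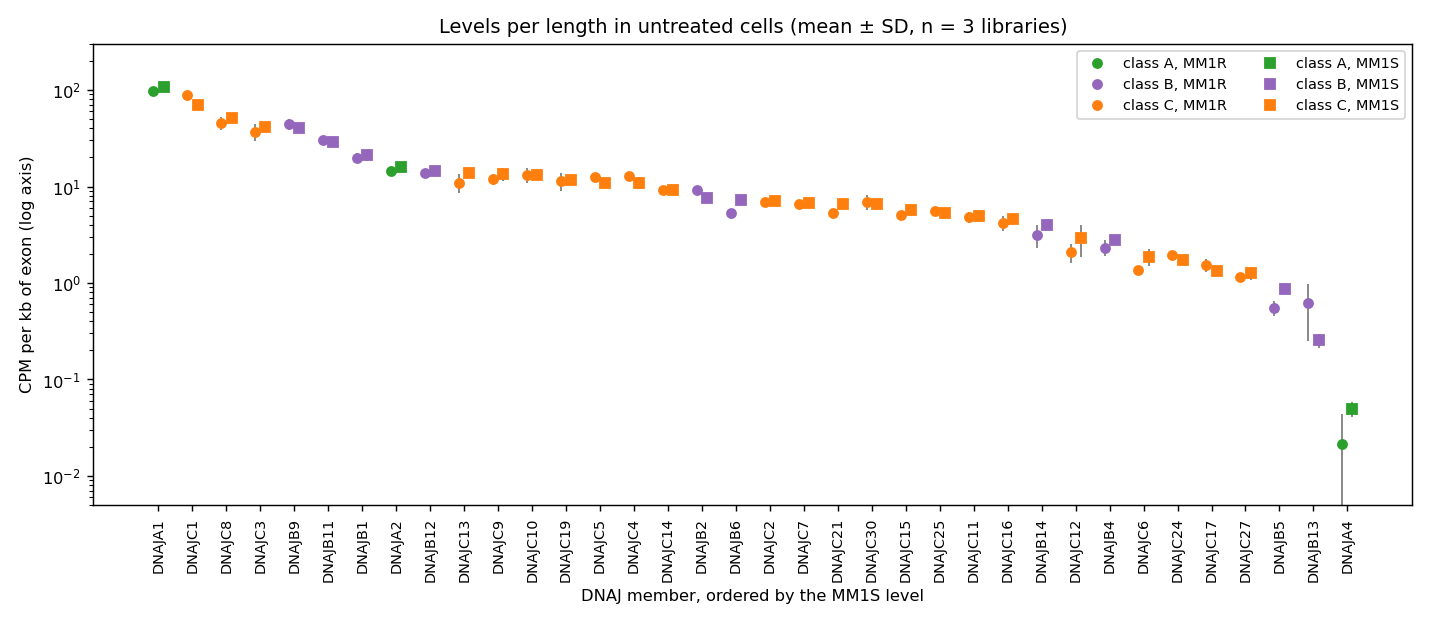
Level of the 36 members in untreated MM1R and MM1S cells in CPM per kb of annotated exon, on a log axis, with points for the mean of 3 libraries and bars for the SD. DNAJA1 is at the top in both lines (97.7 and 108 CPM per kb) and DNAJA4 at the bottom, where the lower end of its SD bar in MM1R cells runs off the axis.

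The untreated lines differed in 1 of 36 members by FDR, beside 10.5% of all genes tested. DNAJC21, which takes part in the maturation of the large ribosomal subunit (chr5:34929664-34959069 in hg19), had 74.5, 78.2 and 76.3 CPM in MM1R and 90.6, 94.7 and 98 CPM in MM1S cells. The lines did not overlap, and MM1R cells were lower by a log2 difference of -0.31 ± 0.08 (SE) with an FDR of 0.0277. DNAJB13, known from the axoneme of cilia and sperm tails, was higher in MM1R cells by 1.27 ± 0.41 (SE) and did not pass (FDR 0.0603). The call for DNAJC21 held in 13 of 18 fits that each left out 1 library. For DNAJB1 the difference between the untreated lines was -0.11, with a 95% interval from -1.49 to 1.27.

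RSL3 raised 8 of the 36 members and lowered 2 when averaged over both lines. The 8 were the cytosolic and nuclear co-chaperones DNAJA1, DNAJB1, DNAJB2, DNAJB4 and DNAJB6, the ER members DNAJB9 and DNAJC3, and DNAJC27, beside 8.7% of all genes tested that were called higher. The 2 lower ones were DNAJB13 and DNAJC5, beside 6.81% of all genes called lower. By class the calls were 1 of 3 in A, 6 of 10 in B and 3 of 23 in C, against 15.5% of all genes in either direction. Of the 10 calls, 6 had a log2 change above 1 in size, beside 3.24% of all genes. The median log2 change was 0.48 in class B and 0.064 in class C, whose members all lay between -0.36 and 0.56, and -0.00013 over all genes. Within MM1R cells alone 3 members passed (DNAJB1, DNAJB4 and DNAJB9; 3.36% of all genes in either direction and 2% higher), and within MM1S cells 5 (the same 3 with DNAJA1 and DNAJB2; 3.67% and 2.5%). All 3 RSL3 libraries were above all 3 untreated ones for 12 members in MM1R (13.5% of all genes) and 9 in MM1S cells (12.6%), and below them for 3 (12.3%) and 4 (12.3%). The 9 in MM1S cells include DNAJA4, which met the count rule through treated libraries alone. The calls within a line were less stable than those over both lines: leaving out any 1 of the untreated MM1R libraries or MM1R RSL3 replicate 3 left 0 calls in MM1R cells, and a fit of the compared groups alone left 0 in MM1S cells. With the passage as a block there were 9 calls in each line and 15 over both. DNAJA4, which the count rule selects for a rise, was among those in MM1S cells. The block also called more of all genes, so that the shares above do not apply to its counts. In edgeR's quasi-likelihood test in MM1R cells, an FDR of 0.0493 went with a p of 0.00641 with the block (DNAJC27). Without the block, an FDR of 0.0491 went with a p of 0.00164 (the gene GRPEL2). Since these are RNA levels of whole cultures, fewer cells of a kind and less RNA per cell cannot be told apart.

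**Figure D2:**
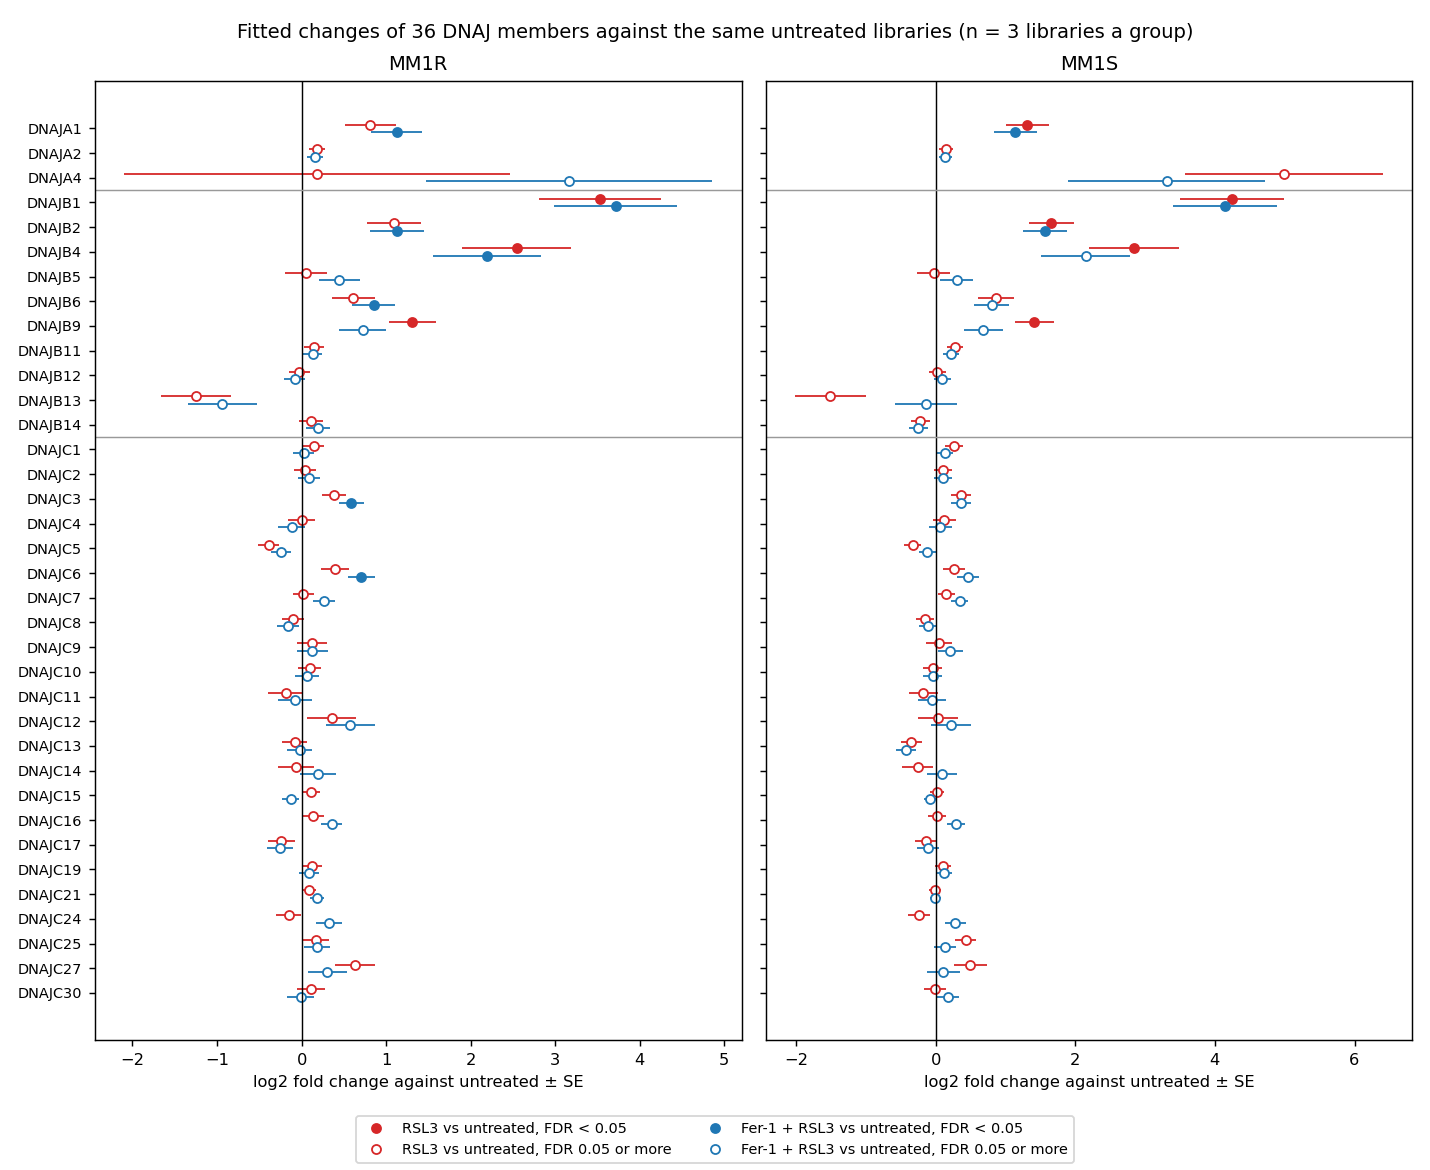
Log2 fold change against untreated cells for the 36 members in each line, for RSL3 and for Fer-1 with RSL3, with bars for the SE and filled points for an FDR under 0.05. DNAJB1 lies at 3.53 to 4.25 in the 4 comparisons, and DNAJC6 with Fer-1 and RSL3 in MM1R cells, at 0.71, is the highest point of class C.

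Of the members passing the test averaged over the lines, DNAJB1 had the largest change, and it alone made up much of the family's RNA after treatment. DNAJB1 (chr19:14625581-14671203, minus strand, hg19) is the HSP40 that heat shock factors induce and that works with HSP70 in refolding and disaggregation. In MM1R cells it was at 142, 179 and 164 CPM without treatment, 895, 799 and 3899.7 CPM with RSL3 and 1550.5, 2210.4 and 2607 CPM with Fer-1 before RSL3. The MM1S libraries held 184, 191 and 147 CPM without treatment, 7939, 928 and 1068 CPM with RSL3 and 3547, 3130.1 and 2546 CPM with Fer-1 before RSL3. Every treated library was above every untreated one, and 2 RSL3 libraries were far above their group, replicate 3 of MM1R (passage 7) and replicate 1 of MM1S (passage 16). The log2 fold change with RSL3 was 3.53 ± 0.72 (SE) in MM1R (FDR 0.0136) and 4.25 ± 0.74 (SE) in MM1S cells (FDR 0.00654). Without MM1S RSL3 replicate 1 the value in MM1S cells was 2.53 (FDR 0.0125), and without MM1R RSL3 replicate 3 that in MM1R cells was 2.40 and did not pass (FDR 0.0663). Its exons overlap those of TECR on the other strand, and whether the counting used strand is not given in the sources used here.

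DNAJB4, a close relative of DNAJB1 in the cytosol (chr1:78444859-78483648), moved in the same libraries from a lower level. Its MM1R libraries held 10.4, 8.28 and 7.18 CPM without treatment, 31.7, 22.1 and 98 CPM with RSL3 and 28.7, 41.7 and 47.9 CPM with Fer-1 before RSL3. In MM1S cells DNAJB4 was at 10.00, 10.6 and 10.5 CPM without treatment, 172, 24.4 and 27.1 CPM with RSL3 and 56.4, 37 and 44.6 CPM with Fer-1 before RSL3. Again the treated and untreated libraries did not overlap, and the same 2 RSL3 libraries stood highest. It rose by 2.55 ± 0.64 (SE) in MM1R (FDR 0.0395) and 2.84 ± 0.64 (SE) in MM1S cells (FDR 0.0229). Neither call held without its high library, where the values were 1.64 (FDR 0.178) in MM1R and 1.32 (FDR 0.176) in MM1S cells, and the MM1R call also missed the threshold without Fer-1 and RSL3 replicate 2 (FDR 0.0501). An annotated overlap with GIPC2 on the same strand makes some of its reads uncertain.

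DNAJA1, which serves HSP70 in protein import and refolding (chr9:33025271-33039905), was already abundant before treatment. MM1R cells had 258, 267 and 256 CPM without treatment, 368, 376 and 629 CPM with RSL3 and 439, 715 and 553 CPM with Fer-1 before RSL3. MM1S cells had 299, 291 and 272 CPM without treatment, 1211, 482 and 448 CPM with RSL3 and 739, 605 and 554 CPM with Fer-1 before RSL3. Each treated library lay above the untreated ones of its line. The log2 change with RSL3 was 1.31 ± 0.31 (SE) in MM1S cells (FDR 0.0255), 0.81 ± 0.30 (SE) in MM1R cells, which did not pass (FDR 0.155), and 1.06 ± 0.21 (SE) over both lines (FDR 0.00358). With the passage as a block the MM1R value passed (0.78, FDR 0.0491). In MM1S cells without RSL3 replicate 1 it was 0.70 (FDR 0.121). DNAJA2, its class A neighbour in the cytosol, was at 0.17 ± 0.07 (SE) over both lines (FDR 0.099), though its ratio to untreated cells was above 0 at all 6 passages and it passed with the block (0.17, FDR 0.0322). The annotation lists 6 pseudogenes of DNAJA1, and reads shared with them would be uncertain.

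DNAJB2 is a ubiquitin-binding member that passes clients to the proteasome (chr2:220144064-220151620). It had 55.7, 50.8 and 55.1 CPM without treatment, 133, 80.3 and 132 CPM with RSL3 and 115, 136 and 104 CPM with Fer-1 before RSL3 in MM1R cells. In MM1S cells it had 48.3, 46.4 and 40.1 CPM without treatment, 247, 99.5 and 77.6 CPM with RSL3 and 163, 134 and 102 CPM with Fer-1 before RSL3. No treated library overlapped the untreated ones. DNAJB2 rose by 1.65 ± 0.32 (SE) in MM1S cells (FDR 0.0118) and by 1.38 ± 0.23 (SE) over both lines (FDR 8.64e-04), and the MM1R value of 1.10 ± 0.32 (SE) did not pass (FDR 0.0669). With the passage as a block it passed in MM1R too (1.08, FDR 0.0121). Without RSL3 replicate 1 it still passed in MM1S cells, at 0.98 (FDR 0.0272).

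DNAJB6, a suppressor of protein aggregation (chr7:157128075-157210133, with 8 annotated pseudogenes), had smaller fold changes. Its levels were 80.7, 78.3 and 79.6 CPM without treatment, 103, 107 and 155 CPM with RSL3 and 108, 180.3 and 142 CPM with Fer-1 before RSL3 in MM1R cells. The MM1S libraries held 112, 108 and 105 CPM without treatment, 310.2, 139.9 and 139.9 CPM with RSL3 and 215, 178 and 173 CPM with Fer-1 before RSL3. All treated libraries were above the untreated ones of their line. The call rests on both lines together, 0.74 ± 0.18 (SE) with an FDR of 0.0124, since the values in MM1R (0.61, FDR 0.209) and MM1S cells (0.86, FDR 0.0692) did not pass. With the block the MM1S value did (0.77, FDR 0.0294). Of the 8 cytosolic and nuclear members of classes A and B, 5 rose over both lines and 0 fell, beside 8.7% and 6.81% of all genes. The list also holds DNAJA2, DNAJA4 and DNAJB5, which did not pass.

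DNAJA4, a heat-inducible class A member, is named here after its values were seen, because 1 library sets them. Its raw counts in MM1S cells were 7, 5 and 7 without treatment, 462, 16 and 14 with RSL3 and 109, 45 and 33 with Fer-1 and RSL3. In MM1R cells they were 6, 1 and 1 without treatment, 1, 2 and 6 with RSL3 and 3, 74 and 1 with Fer-1 and RSL3, so that the only MM1R library above 6 counts was the one that stands apart in NR3C1. It reached 10 counts in treated libraries alone, so that the count rule itself selects for a rise. Its call against untreated cells with the block, and its place among the non-overlapping members in MM1S cells, are therefore no support for a rise.

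**Figure D3:**
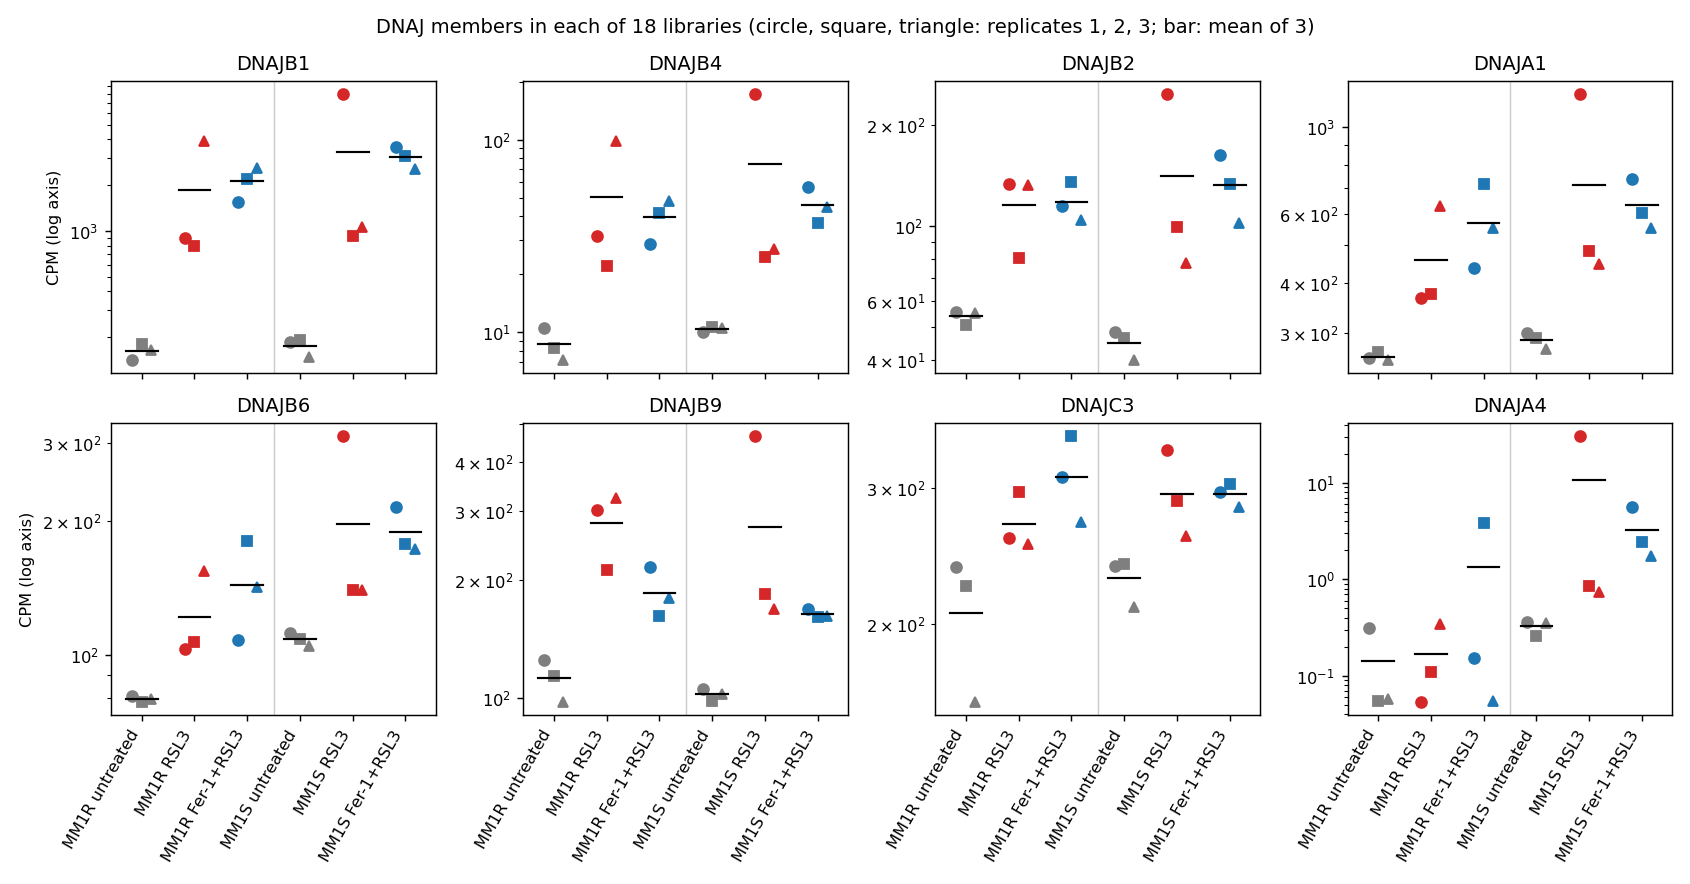
Level in CPM on a log axis of 8 members in the 18 libraries by group, with circles, squares and triangles for replicates 1, 2 and 3 and a bar for the group mean. Replicate 1 of RSL3 in MM1S cells (7939 CPM of DNAJB1) and replicate 3 in MM1R cells (3899.7 CPM) stand above the other RSL3 libraries of their line.

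Among the ER members, DNAJB9 rose in each line. DNAJB9 (ERdj4, chr7:108210311-108215294) binds the ER HSP70 BiP and is induced by the unfolded protein response. In MM1R cells it was at 125, 114 and 97.7 CPM without treatment, 301, 211 and 324 CPM with RSL3 and 216, 162 and 179 CPM with Fer-1 before RSL3. The MM1S libraries held 105, 98.3 and 102 CPM without treatment, 464, 184 and 168 CPM with RSL3 and 168, 161 and 162 CPM with Fer-1 before RSL3. The RSL3 libraries lay above the untreated ones in both lines, and in MM1S cells those with Fer-1 lay between them, the highest of them next to the lowest RSL3 library. RSL3 raised it by 1.31 ± 0.28 (SE) in MM1R (FDR 0.0177) and 1.42 ± 0.28 (SE) in MM1S cells (FDR 0.0128). Without the high library of each line the values were 1.2 (FDR 0.0667) in MM1R and 0.79 (FDR 0.024) in MM1S cells.

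DNAJC3 (p58IPK, chr13:96329393-96447242), a BiP co-chaperone that also holds unfolded clients in the ER lumen, had 237, 224 and 158 CPM without treatment, 259, 297 and 253 CPM with RSL3 and 310.2, 350.1 and 271 CPM with Fer-1 before RSL3 in MM1R cells. In MM1S cells it had 238, 239 and 209.9 CPM without treatment, 336, 288 and 259.6 CPM with RSL3 and 297, 304 and 284 CPM with Fer-1 before RSL3. Treated and untreated libraries did not overlap, and the shift was small beside that of DNAJB9. It rose by 0.37 ± 0.10 (SE) over both lines (FDR 0.02), and with the passage as a block it also passed in MM1R (0.40, FDR 0.0169) and MM1S cells (0.36, FDR 0.028). The other 6 ER members tested did not pass. DNAJB11 (ERdj3), the soluble BiP partner that can be secreted, was at 0.21 ± 0.08 (SE) (FDR 0.08) and DNAJC1 at 0.20 ± 0.09 (SE) (FDR 0.135). Both passed with the block, DNAJB11 over both lines (0.21, FDR 0.0114) and in MM1S cells (0.28, FDR 0.0347), and DNAJC1 over both lines (0.20, FDR 0.0242). The 8 ER members tested had a median of 0.14, beside -0.00013 over all genes.

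DNAJC1 itself was at 223, 233 and 207 CPM without treatment, 269.5, 247 and 216 CPM with RSL3 and 249, 226 and 199 CPM with Fer-1 before RSL3 in MM1R cells. In MM1S cells its libraries held 157, 197 and 168 CPM without treatment, 225, 211 and 189 CPM with RSL3 and 175, 219 and 177 CPM with Fer-1 before RSL3. The treated and untreated ranges overlapped in both lines, although the ratio of RSL3 to untreated cells was above 0 at each of the 6 passages.

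Of the 4 vesicle members, 1 rose and 1 fell over both lines, beside 8.7% and 6.81% of all genes. DNAJC5, the cysteine string protein of exocytic vesicles (chr20:62526479-62567384), had 82.1, 76.7 and 76.9 CPM without treatment, 58.6, 62.2 and 59.1 CPM with RSL3 and 69.6, 60.4 and 68.6 CPM with Fer-1 before RSL3 in MM1R cells. In MM1S cells it had 74.9, 65.4 and 64.2 CPM without treatment, 42.5, 62.5 and 57.5 CPM with RSL3 and 63.5, 65.4 and 59.1 CPM with Fer-1 before RSL3. The RSL3 libraries were below the untreated ones in both lines. DNAJC5 fell over both lines, with a log2 change of -0.36 ± 0.09 (SE) and an FDR of 0.00993, and with the block it passed in MM1R cells (-0.39, FDR 0.0476). DNAJC27, a Rab-like GTPase with a J domain (chr2:25166505-25194963, minus strand), was at 6.18, 7.24 and 5.91 CPM without treatment, 12.2, 7.80 and 9.97 CPM with RSL3 and 7.99, 8.48 and 7.43 CPM with Fer-1 before RSL3 in MM1R cells. Its MM1S libraries held 8.24, 6.11 and 6.93 CPM without treatment, 14.1, 9.27 and 6.72 CPM with RSL3 and 8.50, 6.67 and 7.81 CPM with Fer-1 before RSL3, with RSL3 replicate 3 inside the untreated range. It rose over both lines by 0.56 ± 0.16 (SE) (FDR 0.0285). With the block it passed in MM1R cells too (0.63, FDR 0.0493). The call over both lines held in 12 of 18 fits that each left out 1 library, and the gene overlaps DNAJC27-AS1 on the other strand.

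DNAJB13 (chr11:73662071-73681411) was near the limit of detection. Its raw counts were 55, 21 and 19 without treatment, 13, 12 and 14 with RSL3 and 18, 18 and 15 with Fer-1 and RSL3 in MM1R cells. In MM1S cells they were 16, 12 and 13, then 1, 8 and 4, and then 10, 10 and 16 in the same order. All RSL3 libraries lay below the untreated ones of their line. DNAJB13 fell over both lines, with a log2 change of -1.38 ± 0.33 (SE) (FDR 0.0103).

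The tested members of the mitochondria and of the ribosome, nucleus and spliceosome did not pass. DNAJA3 and DNAJC28, also listed as mitochondrial, had too few counts to be tested. The 4 tested mitochondrial members, DNAJC11, DNAJC15, DNAJC19 and DNAJC30, had a median of 0.058 over both lines, and edgeR's quasi-likelihood test called 0 of 4, with 0 at an unadjusted p under 0.05 and 0 by DESeq2. DNAJC15 and DNAJC19 belong to the motor that pulls proteins into the matrix, and their changes over both lines were 0.064 and 0.11. The 5 members tied to ribosomes, chromatin and splicing, DNAJC2, DNAJC8, DNAJC9, DNAJC17 and DNAJC21, had a median of 0.043, with 0 calls by edgeR or DESeq2 and 0 at an unadjusted p under 0.05. DNAJC8 serves the spliceosome and was at -0.13 ± 0.09 (SE) (FDR 0.389). DNAJC9, a co-chaperone of histones, was at 0.086 ± 0.13 (SE) (FDR 0.71).

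Members outside these lists lay between -0.19 and 0.30 over both lines, DNAJB13 apart, and did not pass. With the block DNAJC25 did (0.29, FDR 0.049). DNAJC7, which binds both HSP70 and HSP90, was at 0.088 ± 0.09 (SE) (FDR 0.563), and DNAJC25 was at 0.30 ± 0.11 (SE) (FDR 0.0762). The values of DNAJC4, DNAJC12 and DNAJC24 were 0.061, 0.19 and -0.19. DNAJC14, given by library after its values were seen, was at 37.5, 39.8 and 38.6 CPM without treatment and 16.3, 38.2 and 42.1 CPM with RSL3 in MM1S cells, where replicate 1, the library with the most DNAJB1, was the lowest of all 18. Its change over both lines was -0.16 ± 0.15 (SE) (FDR 0.529). Of the listed members not yet given, the ER proteins DNAJB12, DNAJB14, DNAJC10 and DNAJC16 were at -0.00088, -0.051, 0.027 and 0.079. The cytosolic DNAJB5 was at 0.014, and the vesicle proteins DNAJC6 and DNAJC13 were at 0.33 and -0.22. None of these 7 passed, and with the block DNAJC6 did, over both lines (0.33, FDR 0.0111) and in MM1R cells (0.40, FDR 0.0492).

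At all 6 passages 11 members had a higher level with RSL3 than without, beside 13.8% of all genes. They were DNAJA1, DNAJA2, DNAJB1, DNAJB2, DNAJB4, DNAJB6, DNAJB9, DNAJB11, DNAJC1, DNAJC3 and DNAJC25. DNAJB13 and DNAJC5 were lower at all 6, beside 14.8% of all genes. The log2 ratio of DNAJB1 was 2.66, 2.16 and 4.57 at passages 4, 6 and 7 of MM1R cells and 5.43, 2.28 and 2.86 at passages 16, 22 and 23 of MM1S cells. The ratio was thus largest at passage 7 in MM1R and passage 16 in MM1S cells, and the ratios of DNAJA1, DNAJB4 and DNAJB9 were largest at those passages too. MM1S RSL3 replicate 1 was the highest of 18 libraries for 13 members, beside 16.9% of all genes, and the lowest for 7, beside 15.5%.

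The RSL3 response was not shown to differ between the lines for any member. In edgeR's quasi-likelihood test of the interaction 0 of 36 members passed and 0 had an unadjusted p under 0.05, beside 0% and 1.55% of all genes, and DESeq2 called 0. For DNAJB1 the response in MM1R minus that in MM1S cells was -0.72, with a 95% interval from -2.67 to 1.23, which leaves room for a difference of several fold. The interval for DNAJB9 was -0.93 to 0.72.

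Of the HSP70 partners tested, 3 of 7 rose in MM1R and 4 of 7 in MM1S cells, and of the exchange factors 2 of 14 rose in each line, beside 2% and 2.5% of all genes called higher. Of 10 HSP70 genes listed, 7 were tested, since HSPA1A and HSPA1L had 0 counts and HSPA1B at most 11 in a library. Whether these low counts reflect the RNA levels or the handling of reads shared between paralogs was not tested. They are therefore not read as absence of these genes. HSPA6, HSPA8 and HSPA13 passed in both lines. HSPA5, given here as an exception, passed in MM1S (0.57 ± 0.12 (SE), FDR 0.0150) but not in MM1R cells (0.42 ± 0.12 (SE), FDR 0.0547). Averaged over both lines HSPA5, HSPA6, HSPA8 and HSPA13 were called higher, beside 8.7% of all genes. HSPA8, the constitutive cytosolic HSP70, had 2337, 3068 and 3181 CPM without treatment and 5021, 5384 and 10238 CPM with RSL3 in MM1R cells. In MM1S cells HSPA8 was at 2899, 2962 and 2932 CPM without and 12455, 6172 and 5964 CPM with RSL3. Its libraries did not overlap, and its highest value fell in the same library of each line as that of DNAJB1. It rose by 1.27 ± 0.28 (SE) in MM1R (FDR 0.0234) and 1.48 ± 0.29 (SE) in MM1S cells (FDR 0.0112). Without the high RSL3 library of the line, a setting added for these partner genes after seeing the data, HSPA8 was at 0.87 in MM1R (FDR 0.103) and 1.06 in MM1S cells (FDR 0.0419). HSPA13, an HSP70-like ATPase of microsomes, rose by 1.22 ± 0.16 (SE) in MM1R (FDR 0.00214) and 1.01 ± 0.16 (SE) in MM1S cells (FDR 0.00406). HSPA6, the strictly inducible HSP70, went from 0.984, 1.04 and 0.903 CPM to 4321, 64.5 and 82.8 CPM in MM1S cells and rose by 10.56 ± 1.78 (SE) (FDR 0.00541). In MM1R cells it rose by 8.61 ± 1.66 (SE) (FDR 0.0105). Without the high library it was at 6.57 in MM1R (FDR 0.0336) and 6.23 in MM1S cells (FDR 0.00648).

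Of 14 exchange factors, BAG3 passed in both lines, GRPEL2 in MM1R cells alone and HSPH1 in MM1S cells alone. Averaged over both lines BAG3, HSPH1, HYOU1 and GRPEL2 were called higher, beside 8.7% of all genes. BAG3, which links HSP70 to autophagy and releases ADP from it, had 56, 56.6 and 49.8 CPM without treatment and 174, 154 and 569 CPM with RSL3 in MM1R cells. The MM1S libraries had 59.2, 65.4 and 55.1 CPM and 1801, 283 and 255 CPM. The high libraries were those of DNAJB1. BAG3 rose by 2.47 ± 0.62 (SE) in MM1R (FDR 0.0376) and 3.70 ± 0.65 (SE) in MM1S cells (FDR 0.00654). Without the high library of the line it was at 1.61 in MM1R (FDR 0.169) and 2.17 in MM1S cells (FDR 0.0109). The genes of the heat shock factors HSF1, HSF2 and HSF4 were not called within a line by edgeR or DESeq2, with 1 at an unadjusted p under 0.05 in each, and HSF2 fell over both lines, with a log2 change of -0.29 ± 0.08 (SE) (FDR 0.0263).

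The summed level of the 36 members rose mainly through DNAJB1. In MM1R cells the sum was 2674 to 2901 CPM without treatment, 3979 to 7430.0 CPM with RSL3 and 4787 to 5897 CPM with Fer-1 before RSL3. In MM1S cells it was 2812 to 2992, 4135 to 12750.3 and 5849.6 to 7177 CPM. DNAJB1 took 4.93% to 6.38% of the sum in the 6 untreated libraries, 20.1% to 62.3% with RSL3 and 32.4% to 49.4% with Fer-1 and RSL3. Without DNAJB1 the sum ranged from 2509.7 to 2801 CPM in untreated libraries and from 3068 to 4811 CPM with RSL3. These sums are descriptions, with no test.

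**Figure D4:**
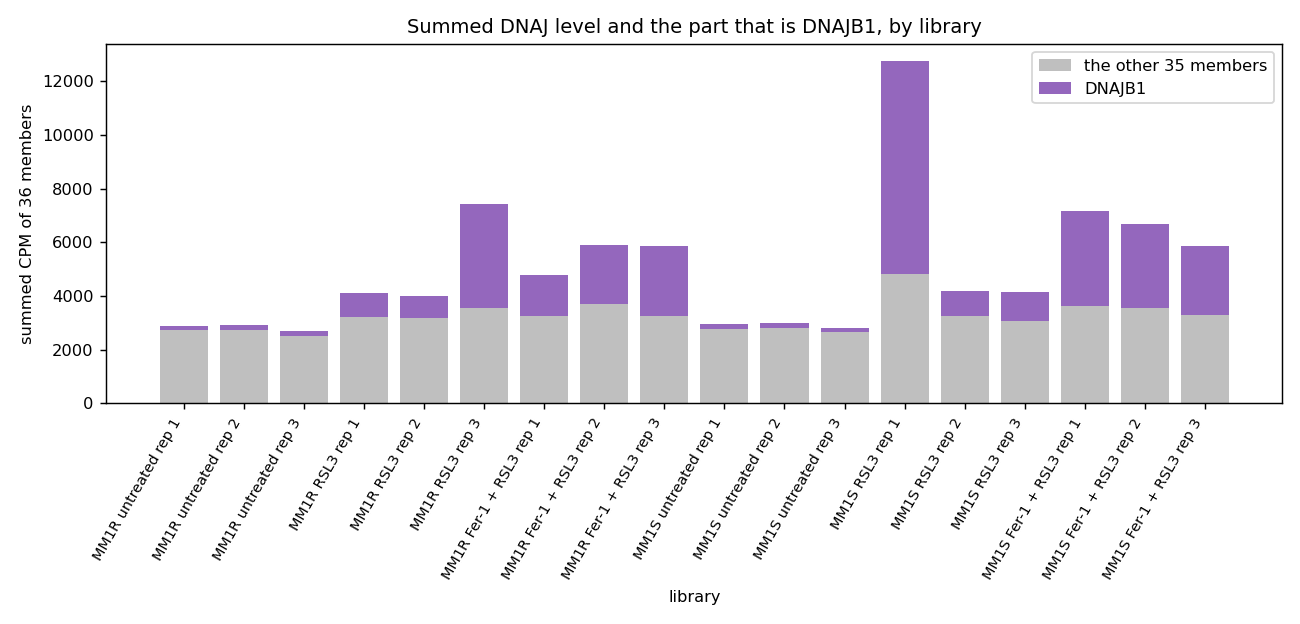
Summed level of the 36 members in CPM in each of the 18 libraries, as bars from 0 split into DNAJB1 and the other 35 members. The DNAJB1 share goes from at most 6.38% in untreated libraries to 62.3% in replicate 1 of RSL3 in MM1S cells.

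Without the passage as a block, no member passed edgeR's test of Fer-1 with RSL3 against RSL3 alone. That fit could call neither a loss nor a gain of the RSL3 response. The 1 call with the block, DNAJC24 over both lines, is given below. Without the block 0 of 36 members passed in edgeR's quasi-likelihood test in MM1R, in MM1S and over both lines, beside 0%, 0% and 0.119% of all genes. At an unadjusted p under 0.05 there were 3 in MM1R (6.17% of all genes), 4 in MM1S (5.75%) and 9 over both lines (12.8%), and DESeq2 called 0, 0 and 2. For DNAJB1 the log2 difference over both lines was 0.040 ± 0.46 (SE), with a 95% interval from -0.93 to 1.01. By passage its ratio of Fer-1 with RSL3 to RSL3 was 0.79, 1.47 and -0.58 in MM1R and -1.16, 1.75 and 1.25 in MM1S cells. The ratio was below 0 where RSL3 alone had been strongest, at passages 7 and 16, and above 0 at the other 4. DNAJB4 showed the same signs at 5 of 6 passages, with -0.14, 0.91 and -1.03 in MM1R and -1.61, 0.60 and 0.72 in MM1S cells, and its interval over both lines ran from -1.41 to 0.36. Both ratios share the RSL3 library of a passage, so that a high RSL3 value raises one and lowers the other.

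DNAJB9 and DNAJC24 were the members with the smallest p in this comparison. DNAJB9 was lower with Fer-1 at all 6 passages, beside 6.56% of all genes, with log2 ratios of -0.48, -0.39 and -0.85 in MM1R and -1.46, -0.19 and -0.058 in MM1S cells. Over both lines its difference was -0.66 ± 0.20 (SE) and did not pass (FDR 0.187). DESeq2 gave it -0.66 with an FDR of 0.045. DNAJC24, which takes part in the synthesis of diphthamide on elongation factor 2 (chr11:31391387-31454382), is named after its values were seen. It was at 17.1, 17.6 and 15.5 CPM without treatment, 12.4, 16.9 and 15.9 CPM with RSL3 and 17, 23.5 and 22.5 CPM with Fer-1 before RSL3 in MM1R cells. In MM1S cells it was at 15.4, 13.5 and 15.7 CPM without treatment, 11, 12.1 and 14.7 CPM with RSL3 and 18.6, 16.8 and 18.9 CPM with Fer-1 before RSL3. With Fer-1 every library was above each RSL3 library of its line, as it was for 5 members in MM1R (6.96% of all genes) and 4 in MM1S cells (4.62%). The difference over both lines was 0.50 ± 0.11 (SE) (FDR 0.0657), and it passed with DESeq2 (0.49, FDR 0.00331) and with the passage as a block (0.50, FDR 0.0175). DNAJC24 overlaps IMMP1L on the other strand. DNAJB13, DNAJC6, DNAJC7 and DNAJC16 were also higher with Fer-1 at all 6 passages, beside 8.05% of all genes, and none of these 4 passed the test.

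**Figure D5:**
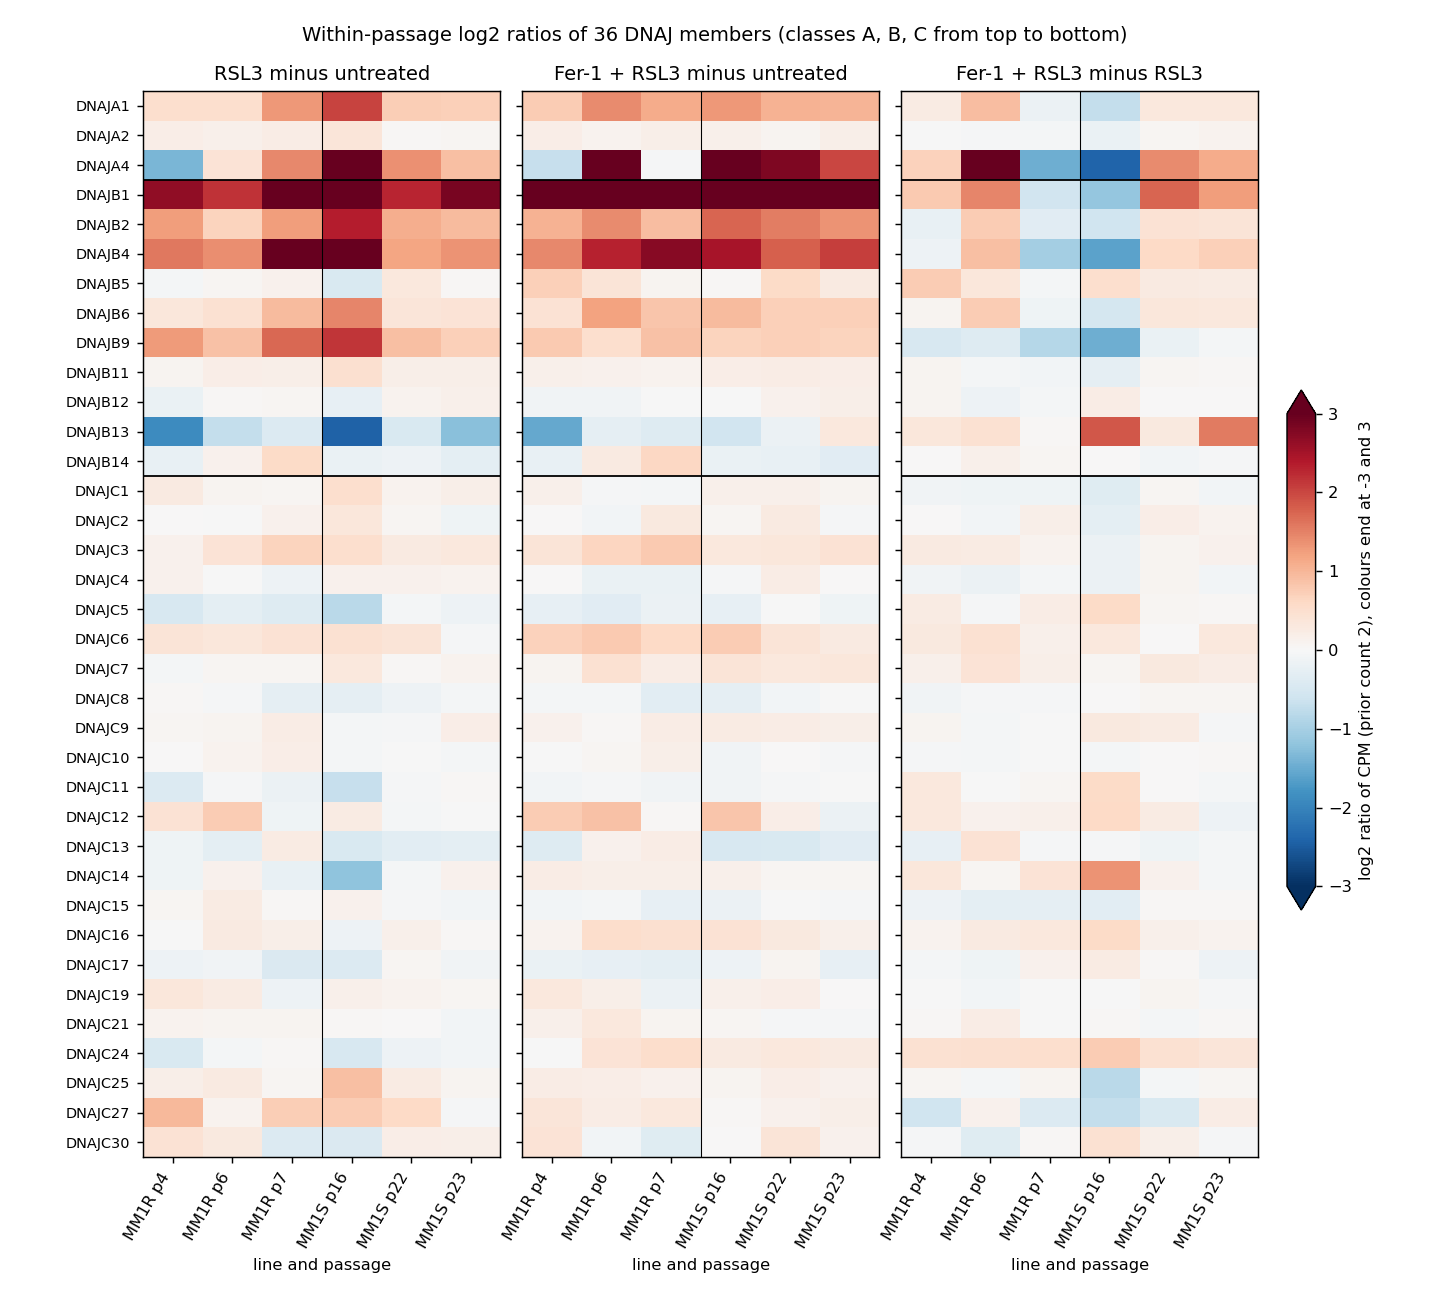
Heat map of log2 ratios within each of the 6 passages for the 36 members, with colours ending at -3 and 3. From left to right the blocks are RSL3 to untreated, Fer-1 with RSL3 to untreated, and Fer-1 with RSL3 to RSL3. DNAJB1 is high at all 6 passages in the first and middle block, and passages 7 and 16 are the darkest in the first. In the last block it is below 0 at passages 7 and 16.

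Against untreated cells, Fer-1 with RSL3 left 7 members called in MM1R and 3 in MM1S cells, beside 9.22% and 4.61% of all genes in either direction. All of these calls were higher than untreated cells, as were 5.57% and 2.6% of all genes. These comparisons share their untreated libraries with those of RSL3 alone. DNAJB1 was at 3.72 ± 0.73 (SE) in MM1R (FDR 0.00558) and 4.14 ± 0.74 (SE) in MM1S cells (FDR 0.00412). By passage the DNAJB1 ratio was 3.45, 3.63 and 3.99 in MM1R and 4.27, 4.04 and 4.11 in MM1S cells. These 6 ratios span a narrower range than those of RSL3 alone, which ran from 2.16 to 5.43. DNAJA1 passed in both lines (1.13, FDR 0.0295, and 1.14, FDR 0.0413), as did DNAJB2 (1.13, FDR 0.0345, and 1.57, FDR 0.00979). Of 18 fits that each left out 1 library, the DNAJA1 call held in 13 for MM1R and 9 for MM1S cells. The DNAJB2 call held in 12 for MM1R and 17 for MM1S cells.

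DNAJB4, DNAJB6, DNAJC3 and DNAJC6 were called as well in MM1R cells. In that order their calls held in 8, 6, 16 and 16 of 18 fits that each left out 1 library. With the passage as a block these 4 passed in MM1S cells too, DNAJB4 (2.09, FDR 0.0212), DNAJB6 (0.78, FDR 0.0224), DNAJC3 (0.37, FDR 0.0217) and DNAJC6 (0.48, FDR 0.0175). The block also added DNAJB9 (0.71, FDR 0.0431), DNAJC7 and DNAJC16 in MM1R and DNAJC7 and, lower, DNAJC13 in MM1S cells. DNAJC6, the auxilin that uncoats clathrin vesicles (chr1:65713902-65881554), had 9.77, 10.2 and 8.52 CPM without treatment, 12.9, 12.9 and 11.6 CPM with RSL3 and 15.8, 17.7 and 13 CPM with Fer-1 before RSL3 in MM1R cells. In MM1S cells it had 10.1, 14.2 and 14.8 CPM without treatment, 13.9, 18.5 and 14.5 CPM with RSL3 and 17.2, 18.6 and 18 CPM with Fer-1 before RSL3. The MM1R libraries with Fer-1 were all above the untreated ones. It rose by 0.71 ± 0.16 (SE) in MM1R cells (FDR 0.0132), and the MM1S value of 0.46 did not pass (FDR 0.114). DNAJB9 was at 0.73 ± 0.28 (SE) in MM1R (FDR 0.114) and 0.68 ± 0.28 (SE) in MM1S cells (FDR 0.182), and did not pass in either without the block. Without MM1R Fer-1 and RSL3 replicate 2, the library that stands apart, 1 of the 7 MM1R calls passed, DNAJB1 at 3.68 (FDR 0.0157). Those lost were DNAJA1 at 0.93 (FDR 0.125), DNAJB2 at 1.02 (FDR 0.116) and DNAJB4 at 2.15 (FDR 0.0977). DNAJB6 at 0.65 (FDR 0.201), DNAJC3 at 0.49 (FDR 0.0849) and DNAJC6 at 0.60 (FDR 0.0677) were lost as well. At all 6 passages 17 members were higher with Fer-1 and RSL3 than in untreated cells and 4 were lower (DNAJC5, DNAJC8, DNAJC11 and DNAJC15), beside 17.1% and 16% of all genes.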

How the data were processed

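RNA sequencing libraries of 18 cultures were analysed, 3 in each of 6 groups. Per the labels and the study's methods, the authors checked reads with FastQC 0.11.5, aligned them to hg19 with STAR 2.7.3a and used DESeq2, and they deposited raw counts per gene, named by symbol. The counting tool, the annotation and the use of strand are not given in the sources used here, so reads shared with overlapping genes, pseudogenes or paralogs are uncertain. A second deposited table of normalized values was not used. DNAJA3, DNAJC8, DNAJC18 and DNAJC28 each have another row ending in _1, which held 0 counts and was not used. Of 2362 symbols with such a second row, 1537 held 0 counts in all libraries under the plain symbol. All columns matched a sample's label.

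In R 4.3.3 with edgeR 4.0.16 and limma 3.58.1, filterByExpr with a minimum count of 10 kept 14281 genes, which were scaled by TMM (factors 0.864 to 1.06). All libraries were fitted with 6 group means and 12 residual degrees of freedom and compared with edgeR's quasi-likelihood test. A member was called at a Benjamini-Hochberg FDR under 0.05 over all genes tested. The SE is the size of the log2 fold change divided by the square root of F, and intervals are 95% and cover the spread between these libraries. Ratios within a passage used log2 CPM with a prior count of 2. Lengths and positions came from an hg19 gene annotation, and promoters from RefSeq (GRCh38.p14), read with Python 3.11.15. No coordinates were converted between builds.

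The members, the gene lists and the rule for named genes were chosen with earlier results of these data known. Values are given for members called in any comparison, for the highest member per length of each class, and for listed partner genes called in both lines, with exceptions said in the text. Another gene list is not reported here. Passage numbers in the labels pair the libraries of a line. Deviations from group means correlated between libraries of a passage with a median of 0.250 in MM1R (0.0338 to 0.516, 9 pairs) and 0.416 in MM1S cells (0.216 to 0.681, 9 pairs). Alternatives were DESeq2 1.42.0, RLE and upper-quartile scaling, no filter or the members' own filter, the passage as a block, the compared groups alone, a fold threshold and leaving out each library. The steps were tested on simulated data.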

Additional observations from a re-analysis of the deposited data

Results flagged for a closer look

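The signs of the ratios were opposite in the lines at every passage for 2 members, 1 in each of the ratios of RSL3 to untreated cells (1.88% of all genes) and of Fer-1 with RSL3 to RSL3 (1.55%). Several of these ratios are close to 0. For DNAJC10 (ERdj5, the disulfide reductase of the ER) the log2 ratio of RSL3 to untreated cells was 0.0032, 0.11 and 0.20 at the MM1R passages, with a median of 0.11, and -0.060, -0.0039 and -0.062 at the MM1S passages, with a median of -0.060. The difference between the lines was 0.14 (95% interval -0.28 to 0.55) and did not pass edgeR's quasi-likelihood interaction test (FDR 1.0).

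For DNAJC8, a splicing factor, the log2 ratio of Fer-1 with RSL3 to RSL3 alone was -0.098, -0.039 and -0.044 in MM1R cells, with a median of -0.044, and 0.00080, 0.055 and 0.049 in MM1S cells, with a median of 0.049. That difference was not tested.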

How the results depend on the processing

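For the member values that were called, 626 values under the alternatives kept direction and call, 98 kept the direction and lost the call, and 0 reversed. Calls gained by other members are in the counts alone. The share of all genes called under each alternative is not given here. The counts below therefore do not compare the members with all genes. The counts of called members changed as follows, and except where a sample or gene filter is named the cause was not tested. RSL3 in MM1R cells gave 5 calls with DESeq2 and 6 without the filter in place of 3. RSL3 in MM1S cells gave 0 with the compared groups alone in place of 5, and 6 of the 10 calls over both lines kept a log2 change above 1. Without the filter the interaction gave 1 call (DNAJA4, which the count rule selects for a rise). Without it Fer-1 with RSL3 against RSL3 gave 2 in MM1R, 3 in MM1S and 3 over both lines. DESeq2 gave 2 over both lines. Fer-1 with RSL3 against untreated cells gave 4 with the fold threshold in MM1R, and 5 with DESeq2, 7 without the filter and 10 with the compared groups alone in MM1S cells. The untreated lines gave 0 with the fold threshold and 0 without the filter.

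With the passage as a replicate block, which pairs the libraries, the calls for RSL3 were 9 in MM1R, 9 in MM1S and 15 over both lines, and Fer-1 with RSL3 gave 1 against RSL3 over both lines and 10 in MM1R and 9 in MM1S cells against untreated ones. The block called more of all genes than the main fit, and its share of all genes is not given beside these counts. The untreated lines cannot be fitted with the block, since no passage is shared.

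Leaving out 1 library at a time gave 0 to 8 calls for RSL3 in MM1R, 1 to 8 in MM1S and 9 to 11 over both lines. It gave 0 to 0 for the interaction and for Fer-1 with RSL3 against RSL3 within each line, and 0 to 2 over both lines. Against untreated cells Fer-1 with RSL3 gave 1 to 8 in MM1R and 1 to 7 in MM1S cells, and the untreated lines gave 0 to 2. For RSL3 in MM1R the count was 0 without any of the untreated MM1R libraries or RSL3 replicate 3, 1 without RSL3 replicate 1, and 8 without MM1S RSL3 replicate 1. For RSL3 in MM1S it was 1, 2 and 1 without untreated replicates 1, 2 and 3, 3 without RSL3 replicate 1 and 8 without RSL3 replicate 2. Fer-1 with RSL3 against RSL3 over both lines gave 2 without MM1S RSL3 replicate 3. Against untreated cells it gave 4, 3 and 1 in MM1R without untreated replicates 1, 2 and 3, 1 and 3 without Fer-1 and RSL3 replicates 2 and 3, and in MM1S 1 without untreated replicate 3 and 7 without RSL3 replicate 1. The untreated lines gave 0 without MM1R untreated replicates 2 or 3 or MM1S untreated replicates 2 or 3, and 2 without MM1S untreated replicate 1 or RSL3 replicate 1. The calls over both lines held in all 18 such fits except DNAJC27, which held in 12. Depth limits DNAJA4 and DNAJB13, where 3 counts in a library are 0.151 to 0.197 CPM.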
